A study of Mus musculus with 28 samples.

Results

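The 7 miRNAs described here are mmu-mir-690, mmu-mir-706, mmu-mir-709, mmu-mir-1187, mmu-mir-1195, mmu-mir-5098 and mmu-mir-8111, and they were taken by name as miRNAs thought to share sequence with repeats or with many transcripts. They are 7 of the 607 miRNAs listed in any table, and all 7 were listed in each of the 4 tables. They were chosen by name, with the values of these libraries in all 4 tables already known, so the adjusted p-values below describe these libraries and are not independent evidence. No threshold on a value was used. Small RNA was sequenced from alveolar macrophages (AM) washed from the lungs of 12 weeks old mice, taken 4 h after the end of a 3 h exposure to filtered air (FA) or ozone (O3). Co-ex mice were humanized transgenic animals with the human surfactant protein genes SP-A1 (6A2) and SP-A2 (1A0) on a C57BL/6J background without mouse SP-A, and KO mice had no SP-A at all, so both genotypes lacked the mouse protein. The 8 groups were males and females of each genotype after FA or O3, the females were synchronized for the estrous cycle, and there were 4 libraries for each co-ex group and 3 for each KO group, 28 in all. The labels number the libraries and give each a library code, without saying what the codes stand for, so p-values measure the spread between these libraries. Co-ex and KO libraries were coded in separate runs. Within KO the codes formed an unbroken run, except for KO female FA replicates 2 and 3 and KO male FA replicate 3. These had higher codes, and no O3 library did. The part of this in the results was not tested.

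A miRNA is a short RNA cut from a hairpin, and it pairs through its seed, the bases near its 5′ end, with messenger RNAs that it lowers. Some entries of the miRNA registries lie in, or look like, interspersed repeats. In rodents these include short interspersed elements (SINEs) such as B1 and B2, which are copied throughout the genome, sit in introns and untranslated regions of many transcripts, and are known to be transcribed more under cell stress. A short read from such a transcript can carry the same letters as the annotated miRNA, and in tables of counts per miRNA the reads from either source cannot be told apart. In AM, the resident phagocytes of the airspace, O3 is known to start an oxidative and inflammatory response.

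The mature sequences of 6 of the miRNAs were matched by name in RefSeq for GRCm38.p6. They are shown because the letters set which other transcripts can be counted under the same name, and capitals mark the seed, bases 2 to 8.
miR-690: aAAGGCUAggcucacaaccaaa
miR-706: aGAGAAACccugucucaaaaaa
miR-1187: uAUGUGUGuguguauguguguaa
miR-1195: uGAGUUCGaggccagccugcuca
miR-5098: gUUACAUGgugaagcccaguu
miR-8111: aCCGGGCAugguaguguacac
By eye the letters have little in common: miR-1187 is an alternation of U and G with a few A, miR-706 ends in a run of A, and miR-1195 is rich in G and C. Among 15 pairs of these sequences, read in the same direction, the longest shared stretch was 6 bases. With miRNAs of the miR-3470, miR-3471 and miR-3473 families, which resemble SINEs, it was also at most 6 bases. miR-3470a was not among those compared, and opposite strands were not compared. miRNAs from different parts of a repeat would share little, so these lengths do not tell whether they have a common origin. No pair shared a seed. Of 1679 mature mouse sequences in the same table, miR-1946b held the seed of miR-8111, and the seeds of the other 5 were found in no other sequence.

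The genes lie apart in the genome, with positions given for GRCm38. The mature miR-690 lies at chr16:28599940-28599961 on the minus strand, in an intron of Fgf12, a gene of the fibroblast growth factor family. miR-706 lies at chr6:120034290-120034311 on the minus strand, in an intron of Wnk1, a kinase gene of ion transport. miR-5098 lies at chr5:77272767-77272787 on the plus strand, in an intron of Rest, a repressor of neuronal genes. The hairpin of miR-709 lies at chr8:84086099-84086186 on the plus strand, in an intron of Rfx1, a transcription factor gene. miR-1195 lies at chr17:70860558-70860580 on the minus strand, within an intron of the pseudogene Gm9320 of the opposite strand. miR-1187 at chr5:82798964-82798986 on the minus strand and miR-8111 at chr8:84005704-84005724 on the plus strand lie between genes.

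In searches for exact stretches, the idea that these miRNAs share sequence with many transcripts held for some of them and was not borne out for others. Each mature sequence was cut into stretches of 18 bases, which were searched on both strands of the transcripts of 53248 genes of the GENCODE M21 annotation that are not miRNA genes. At least 1 stretch of miR-1195 occurred in transcripts of 1245 genes, of miR-706 in 860 and of miR-1187 in 507, the ranks 2, 4 and 6 among the 517 listed miRNAs with a sequence. The median of the 511 other miRNAs was 0 genes, and 8 of them (1.57%) reached 100 genes. miR-690 shared a stretch with 14 genes, miR-8111 with 1 and miR-5098 with 0. The whole of miR-706 occurred in the sense of transcripts of 208 genes and against it in 249, the whole of miR-690 in 3 and 1, and the whole of miR-1187, miR-1195, miR-5098 and miR-8111 in none. With stretches of 16 bases the counts were 2097 genes for miR-706, 1382 for miR-1195, 868 for miR-1187, 22 for miR-690, 3 for miR-8111 and 0 for miR-5098. The hairpin of miR-690 shared 18 bases with 1039 genes and that of miR-1187 with 4383, while the median of 332 other hairpins was 1 gene. The hairpins of miR-706, miR-709, miR-1195, miR-5098 and miR-8111 were not searched, and neither was the mature miR-709. Only exact matches were counted, so the low counts of miR-5098 and miR-8111 do not show that they share no sequence with repeats. The set is therefore named here by its members.

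**Figure D1:**
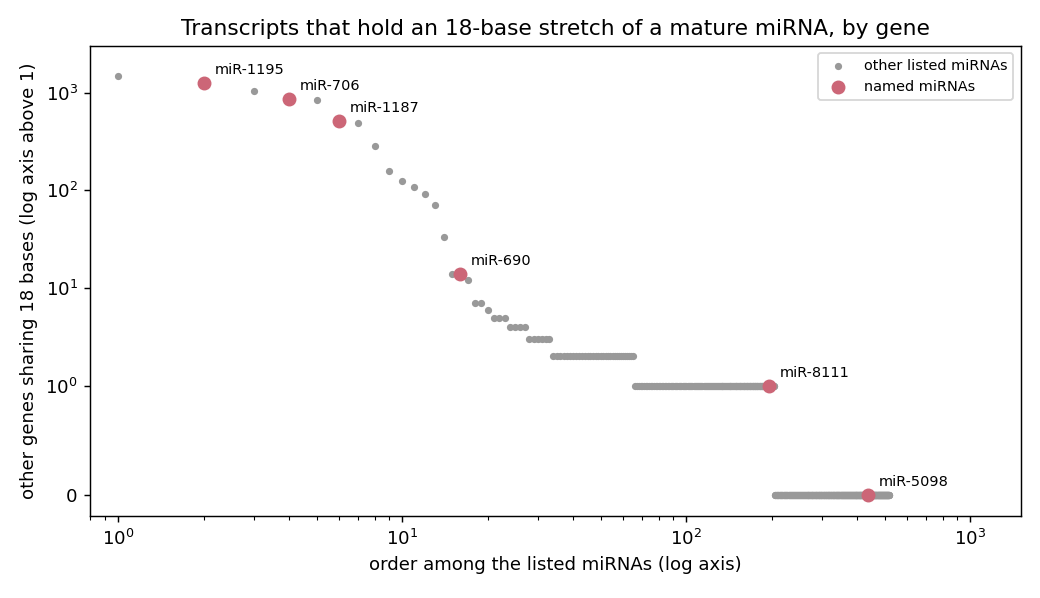
Number of genes whose transcripts hold an 18-base stretch of a mature miRNA (vertical axis, log above 1) against its order among the 517 listed miRNAs with a sequence (horizontal log axis, ties in name order). The red points are miR-1195 (1245 genes), miR-706 (860), miR-1187 (507), miR-690 (14), miR-8111 (1) and miR-5098 (0), and the grey points are the other miRNAs.

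The libraries held 41542 to 2082034 reads on miRNAs (median 490152), as recovered from the deposited values. The 3 reads that a count of 0 allows were worth 1.04 to 12.9 normalized units, and these limits cover counting error only. The 7 miRNAs took 0.0153% to 0.886% of the reads of a library. They were modest next to miR-21a-5p, a miRNA abundant in myeloid cells, which ranked 1 or 2 by mean value in each table. Of 7 macrophage and myeloid miRNAs, 6 were listed in co-ex females and 7 in each other table. Among the libraries that stood apart in marker lists were KO male FA replicate 3, with the lowest sum of macrophage and myeloid miRNAs of all 28 (42578 reads per 1000000 miRNA reads, RPM), KO female O3 replicate 3, with 85312 RPM on the listed muscle miRNAs against at most 720 in the other KO female libraries, and co-ex male O3 replicate 2, described below. Co-ex female FA replicate 3 held 137371 RPM on red cell miRNAs against 12810 to 22035 in the other FA libraries of that sex, and co-ex female FA replicate 1 held 8307 RPM on muscle miRNAs against 110 to 609. The low myeloid sum of KO male FA replicate 3 was mostly miR-21a-5p (31497 RPM), and co-ex male FA replicate 3 was close to it, at 43300 RPM. In such bulk samples fewer cells of a type and less RNA per cell cannot be told apart.

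Across the 8 groups, co-ex females had the highest mean levels of these miRNAs. Since the authors normalized each table on its own, levels were set side by side in RPM, with no test. By mean RPM, 5 of the 7 miRNAs were highest in co-ex females after FA, and the other 2, miR-709 and miR-1187, in co-ex females after O3. The order of the groups did not separate well: of 49 pairs of neighbours in the 7 orders, 42 had libraries that overlapped. The co-ex female groups were also the shallowest, with medians of 149548 reads after FA and 214304 after O3, and the next was 336558 in co-ex males after FA. The SINE-like miRNAs were highest there too, with median sums of 30477 and 26967 RPM against 142 to 7564 in the other groups. The part of depth in these levels was not tested.

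The level of miR-690 was 712 ± 408 RPM (SD, n = 4) in co-ex females after FA, followed by 522 ± 163 (SD, n = 3) in KO females after O3 and 459 ± 210 (SD, n = 4) in co-ex females after O3. It was 321 ± 136 (SD, n = 3) in KO males after O3, 213 ± 330 (SD, n = 4) in co-ex males after O3 and 120 ± 123 (SD, n = 3) in KO males after FA. The lowest levels were 36.5 ± 26.4 (SD, n = 4) in co-ex males after FA and 35.7 ± 13.2 (SD, n = 3) in KO females after FA. All neighbours in this order overlapped.

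miR-709 was the most abundant of the 7 in co-ex females, at 1563 ± 1432 RPM (SD, n = 4) after FA and 1662 ± 1618 (SD, n = 4) after O3, and its lowest mean was 22.7 ± 7.71 RPM (SD, n = 3) in KO males after FA. miR-1195 ranged from 1152 ± 851 RPM (SD, n = 4) in co-ex females after FA to 57.8 ± 33.6 (SD, n = 4) in co-ex males after FA. It was the only member whose level in KO females after FA (608 ± 130 RPM, SD, n = 3) stood above that after O3 (326 ± 74.1, SD, n = 3) with no overlap. miR-706 was 232 ± 180 RPM (SD, n = 4) in co-ex females after FA and had no read in any of the 3 KO female FA libraries. For miR-5098 and miR-8111 the highest means were 557 ± 556 and 520 ± 436 RPM (SD, n = 4 each), again in co-ex females after FA. miR-1187 departed from this order, with 223 ± 233 RPM (SD, n = 4) in co-ex females after O3 and 221 ± 169 (SD, n = 4) in co-ex males after FA. RPM depends on what else was read: miR-6538, miR-2137 and miR-5126 together took up to 271556 RPM in a co-ex female O3 library.

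**Figure D2:**
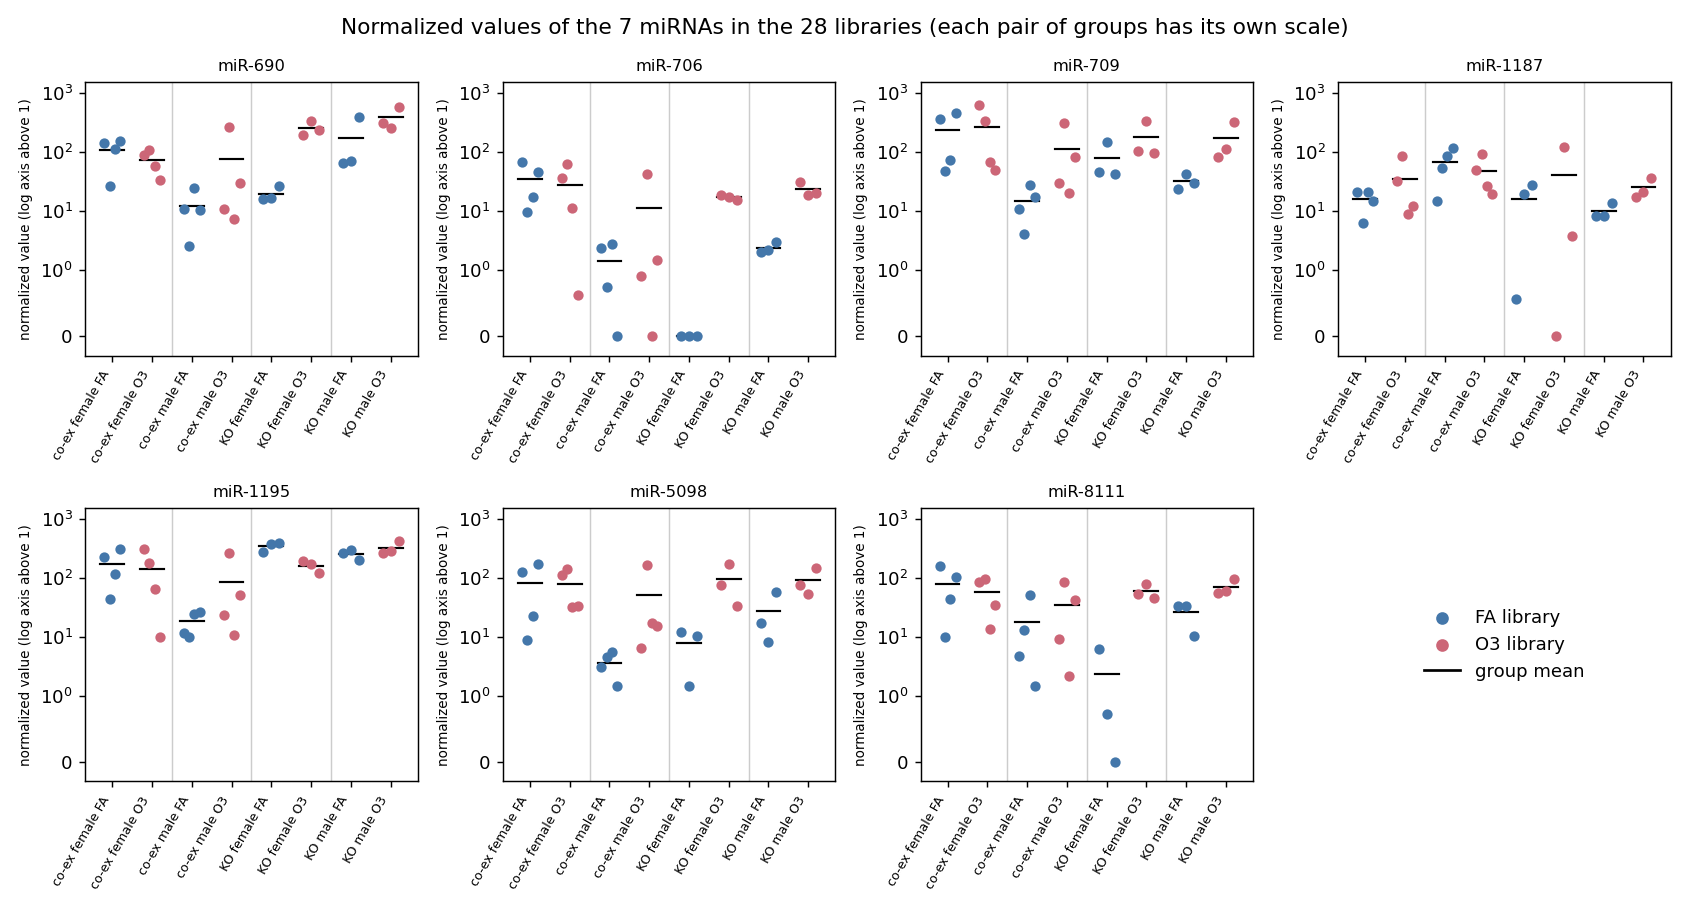
Normalized values (vertical axes, log above 1) of the 7 miRNAs in each of the 28 libraries, by group, with FA in blue, O3 in red and black lines for group means. In KO females the 3 O3 libraries lie above the 3 FA libraries for miR-690, miR-706, miR-5098 and miR-8111 and below them for miR-1195, and in co-ex females the exposures overlap in all panels.

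O3 was compared with FA within each table, which asks how AM of each genotype and sex respond to oxidative stress. The test was limma on log2(normalized value + 1). A miRNA was tested where 4 libraries of a co-ex table, or 3 of a KO table, held a value of 5 or more, and it was called changed at an adjusted p under 0.1 over all tested miRNAs of the table. Adding 1 makes the fold changes of low miRNAs too small. Scaling libraries to their totals of reads in place of the authors' size factors moved the median log2 fold change of all tested miRNAs by 0.19 in KO females and 0.24 in KO males, and it changed the sign of no member in any table.

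In KO females, 3 of the 7 miRNAs rose after O3, namely miR-690, miR-706 and miR-8111. Over all 319 miRNAs tested there, 13.2% were called and 10.0% were called higher. At an unadjusted p under 0.05 there were 5 members, beside 25.7% of all tested, and 5 of 7 had a log2 fold change above 0, beside 53.0%. The exposures were fully apart for 5 of the 7, with 4 higher and 1 lower after O3, where 31.3% of all tested miRNAs did not overlap and 19.1% did so with O3 higher. miR-706, miR-5098 and miR-8111 reached a value of 5 in enough libraries only because of their O3 libraries. miR-1187 needed an O3 library too, with 2 FA libraries and 1 O3 library at 5 or more. Counts over the tested members are therefore no support for a difference.

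miR-690 had values of 15.8, 16.8 and 26.5 in the KO female FA libraries and of 194, 336 and 234 in the O3 libraries. All O3 libraries were thus far above all FA libraries. The mean rose from 19.7 ± 5.92 to 255 ± 73.1 (SD, n = 3 each), a log2 fold change of 3.62 (SE 0.62, adjusted p = 0.00799, limma). This call was kept in each alternative setting and with each library left out.

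miR-706 was at 0 in the 3 FA libraries and at 18.7, 17.2 and 15.4 in the O3 libraries. Set against the 3 reads that a count of 0 allows per library, the mean after O3 was at least 8.58-fold higher, and the fitted log2 fold change was 4.18 (SE 1.03, adjusted p = 0.0344, limma). In O3 replicate 2 the value of 17.2 rested on 4 reads, and without FA replicate 2 or FA replicate 3 the call was lost. miR-8111 had values of 6.21, 0.732 and 0 after FA and of 52.6, 77.5 and 45.5 after O3. Its O3 libraries all lay above its FA libraries, with means of 2.31 ± 3.39 and 58.6 ± 16.8 (SD, n = 3 each) and a log2 fold change of 4.65 (SE 1.14, adjusted p = 0.0344, limma), and the call was lost without O3 replicate 2 or O3 replicate 3, with a pseudocount of 0.1 and by edgeR.

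miR-5098 went the same way without being called. Its values were 11.9, 1.46 and 10.5 after FA and 73.8, 172 and 33.2 after O3, with no overlap, a log2 fold change of 3.42 (SE 1.11) and an adjusted p of 0.108 by limma. It was called without FA replicate 3, with total scaling, with a pseudocount of 5 and by DESeq2. miR-1195 went the other way, with 269, 365 and 383 after FA and 194, 168 and 119 after O3. Every O3 library was below every FA library, and the log2 fold change was -1.09 (SE 0.41, adjusted p = 0.144, limma), with a call by DESeq2 alone. miR-709 had values of 45.7, 146 and 41.9 after FA and of 104, 327 and 96.5 after O3, where FA replicate 2 lay above the lower O3 libraries, and its log2 fold change was 1.17 (SE 0.75, adjusted p = 0.418, limma). miR-1187 had no direction, with 0.564, 19.8 and 27.9 after FA and 0, 121 and 3.86 after O3, and a log2 fold change of -0.22 (SE 1.96, adjusted p = 0.972, limma).

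The contrast between miR-690 and miR-1195 in KO females does not depend on how libraries are scaled, because it can be read as a ratio of reads within a library. The reads of miR-690 over those of miR-1195 were 0.0587, 0.0462 and 0.0693 after FA and 1.00, 2.00 and 1.97 after O3. In KO males the ratio was 0.241, 0.239 and 1.94 after FA and 1.19, 0.882 and 1.42 after O3. There the high FA value was that of replicate 3, and the other FA libraries lay below all O3 libraries. In co-ex females the ratio ranged from 0.499 to 0.969 after FA and from 0.293 to 3.38 after O3, and in co-ex males from 0.259 to 1.00 and from 0.462 to 1.00. The pair was taken with these values known, as miR-690 rose and miR-1195 fell in KO females, so its separation there is no further evidence. These ratios are given as descriptions, and they show unequal change of the pair and not which of the pair changed.

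Other features moved with O3 in KO females. The O3 libraries were shallower (111080 to 634775 reads) than the FA libraries (744541 to 1002869). Summed over 12 listed epithelial miRNAs of 12, the level was 1647 to 4869 RPM after FA and 22361 to 39305 after O3, and of 11 that were tested, 9 were called, all higher. Of the 11 SINE-like miRNAs, 8 were listed, with sums of 165 to 466 RPM after FA and 1903 to 3547 after O3, and 3 of 5 tested were called, all higher. miR-6538, miR-2137 and miR-5126, a list picked from these data because they rise after O3, summed to 745 to 8594 RPM after FA and 14500 to 17438 after O3, with 2 of 3 called. The mesenchymal miRNAs (5 listed of 6) summed to 143 to 910 RPM after FA and 990 to 5032 after O3. The macrophage and myeloid list was 106474 to 123356 RPM after FA and 103925 to 111305 after O3, and 1 of its 7 miRNAs had a log2 fold change above 0. The part of these features in the results was not tested.

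In KO males, none of the 7 miRNAs was called by limma, although all 7 had a log2 fold change above 0. Over all 440 miRNAs tested there, 0.909% were called and 48.6% had a log2 fold change above 0. At an unadjusted p under 0.05 there were 3 members (7.27% of all tested), and edgeR called 0 and DESeq2 2 (miR-706 and miR-709). The share of all tested miRNAs called by DESeq2 is not given here. The libraries did not overlap, with O3 higher, for 4 of the 7, beside 7.73% of all tested miRNAs (12.7% in either direction), and miR-706 passed the filter through its O3 libraries.

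miR-706 had values of 2.03, 2.23 and 2.98 after FA and of 31.1, 18.8 and 20.5 after O3. The groups were well apart, with 2 or 3 reads in each FA library, a log2 fold change of 2.82 (SE 0.70) and an adjusted p of 0.235 by limma. miR-709 had values of 23.4, 41.6 and 29.8 after FA and of 81.9, 114 and 317 after O3, also apart, with a log2 fold change of 2.19 (SE 0.65, adjusted p = 0.332, limma). miR-8111, at 33.5, 33.4 and 10.4 after FA and 55.3, 60.1 and 95.1 after O3, and miR-1187, at 8.13, 8.18 and 13.4 after FA and 17.5, 21.3 and 36.8 after O3, did not overlap either, with log2 fold changes of 1.53 (SE 0.65) and 1.23 (SE 0.64).

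For miR-690 a single library decided the result. Its values were 64.0, 70.6 and 385 after FA and 313, 253 and 582 after O3, so that FA replicate 3 lay among the O3 libraries. The log2 fold change was 1.57 (SE 0.79, adjusted p = 0.764, limma), and without FA replicate 3 it was 2.40 (SE 0.40, adjusted p = 9.59e-04, limma). That library was singled out with these values known, so the smaller p-value is no further evidence. miR-5098 behaved alike, with 17.3, 8.18 and 56.7 after FA and 74.0, 52.6 and 145 after O3, and its log2 fold change of 1.97 became 2.69 (adjusted p = 0.0104, limma) without that library. With FA replicate 3 left out, 4 of the 7 miRNAs were called, the others being miR-706 and miR-709. The share of all tested miRNAs called in that fit is not given here, so this count is a description and no result about the members. miR-1195 overlapped throughout, with 266, 296 and 198 after FA and 263, 287 and 411 after O3, and a log2 fold change of 0.33 (SE 0.43).

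KO male FA replicate 3 also differed in the marker lists. Its summed epithelial miRNAs were at 30414 RPM against 2456 and 2998 in the other FA libraries, its mesenchymal miRNAs (5 listed of 6) at 25848 against 817 and 833, and its macrophage and myeloid miRNAs at 42578 against 166657 and 223277. The last list was not uniform. miR-21a-5p made up most of the sum, at 31497 RPM against 157499 and 211919, and miR-223-3p, miR-223-5p and miR-142a-3p were lower there too. miR-146a-5p was higher, at 3588 against 341 and 373, as was miR-155-5p, at 1134 against 153 and 155. miR-142a-5p was slightly higher, at 4458 against 3478 and 4431. The SINE-like miRNAs (9 listed of 11) were at 505 RPM there, against 135 and 142. After O3 the epithelial sum was 23368 to 29788 RPM and the SINE-like sum 916 to 1999, and all 7 SINE-like miRNAs tested had a log2 fold change above 0. miR-6538, miR-2137 and miR-5126 summed to 392 to 642 RPM after FA and 8823 to 10448 after O3, and all 3 were called, of 4 miRNAs called in all. The part of these features in the results was not tested.

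In co-ex females, none of the 7 miRNAs was called by limma, edgeR or DESeq2, and none had an unadjusted p under 0.05. Over all 271 miRNAs tested there, 0.369% were called and 5.90% had an unadjusted p under 0.05. All 7 had libraries that overlapped between FA and O3, beside 4.06% of all tested miRNAs that did not (1.48% with O3 higher). The log2 fold changes ran from -0.94 for miR-706 to 0.70 for miR-1187, with 3 of 7 above 0 beside 43.2% of all tested miRNAs, and the smallest adjusted p was 0.891.

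The co-ex female libraries spread widely within each exposure. miR-709 had values of 357, 47.0, 73.3 and 453 after FA and of 627, 328, 68.0 and 50.1 after O3. miR-1195 had 225, 44.3, 113 and 310 after FA and 302, 177, 63.3 and 9.90 after O3. miR-690 had 142, 26.6, 110 and 154 after FA and 88.5, 109, 58.0 and 33.4 after O3. In all 7 miRNAs, FA replicate 2 was the lowest of its group and O3 replicates 1 and 2 lay above O3 replicates 3 and 4.

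Of the remaining 4 miRNAs, miR-706, miR-5098 and miR-8111 had the same order of high and low libraries after FA, with replicates 1 and 4 above replicate 3. miR-706 had values of 67.0, 9.68, 17.5 and 46.6 after FA and of 36.2, 62.7, 11.2 and 0.619 after O3. miR-5098 had 126, 8.99, 22.7 and 172 after FA and 113, 139, 31.9 and 32.8 after O3, and miR-8111 had 156, 10.0, 43.7 and 104 after FA and 84.5, 96.3, 13.6 and 34.0 after O3. miR-1187 had another order and a narrower range after FA, at 21.0, 6.23, 21.0 and 14.8, and it was 32.2, 86.8, 8.87 and 12.4 after O3.

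The libraries with low values were the deeper ones of their groups, with 488993 reads in FA replicate 2 and 248397 and 260115 in O3 replicates 3 and 4, beside 41542 and 180212 in O3 replicates 1 and 2. The SINE-like miRNAs (9 listed of 11) summed to 10505 RPM in FA replicate 2 and to 20049 to 50192 in the other FA libraries, and to 14030 and 14636 in O3 replicates 3 and 4 against 58832 and 39298 in the other O3 libraries. The part of depth in this spread was not tested within co-ex females alone.

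In co-ex males, miR-706 did not pass the filter and none of the other 6 miRNAs was called by limma, edgeR or DESeq2, where 0.00% of all 312 miRNAs tested were called. At an unadjusted p under 0.05 there were 2, miR-5098 and miR-709, beside 3.53% of all tested. miR-5098 was the only member whose FA and O3 libraries did not overlap, beside 2.88% of all tested miRNAs, or 2.24% with O3 higher, and 5 of its 8 libraries held a value of 5 or more, 4 of them after O3. miR-690 and miR-709, too, passed the filter only because of their O3 libraries, with 3 FA libraries each at 5 or more where 4 were needed, and miR-8111 had 2 such libraries after FA and 3 after O3, so these counts are no support for a difference. The log2 fold change was above 0 for 5 of 6 members and for 58.3% of all tested miRNAs.

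O3 replicate 2 was the highest O3 library for all 7 miRNAs. In miR-690 the values were 11.0, 2.61, 24.5 and 10.2 after FA and 11.0, 259, 7.20 and 30.3 after O3, so that this library was 8.54-fold above the next. In miR-709 they were 11.0, 4.11, 27.2 and 17.5 after FA and 29.3, 309, 20.2 and 81.9 after O3. In miR-1195 they were 11.8, 10.1, 24.5 and 26.3 after FA and 23.8, 258, 10.8 and 51.6 after O3. In miR-690 and miR-1195, O3 replicates 1 and 3 lay among the FA libraries, and replicate 4 lay above all of them, though far below replicate 2.

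The values of miR-5098 were 3.13, 4.48, 5.45 and 1.46 after FA and 6.40, 166, 17.3 and 15.2 after O3. The log2 fold change was 2.50 (SE 0.99, adjusted p = 0.944, limma), and without O3 replicate 2 it was 1.58 (SE 0.95). For miR-709 it was 2.25 (SE 0.89, adjusted p = 0.944, limma) with that library and 1.49 (SE 0.85) without it, for miR-690 it fell from 1.50 to 0.46, and for miR-1195 from 1.33 to 0.49.

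miR-706 was near or at 0 in all co-ex male libraries but that of O3 replicate 2, with values of 2.35, 0.747, 2.72 and 0 after FA and of 0.914, 41.9, 0 and 1.52 after O3. miR-8111 had 4.70, 13.1, 51.8 and 1.46 after FA and 9.14, 82.9, 2.16 and 42.5 after O3, which overlapped widely. miR-1187 had 14.9, 53.4, 84.5 and 117 after FA and 50.3, 91.5, 26.7 and 19.7 after O3, with a log2 fold change of -0.42 (SE 0.74).

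Co-ex male O3 replicate 2 also had the highest epithelial sum of the co-ex male libraries, 40170 RPM against 3560 to 27304 in the others, the highest SINE-like sum, 21699 against at most 12056, and the lowest macrophage and myeloid sum of the O3 libraries, 54328 against 101850 to 137876. Its depth of 430018 reads was within the range of the group. The part of these features in its values was not tested.

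**Figure D3:**
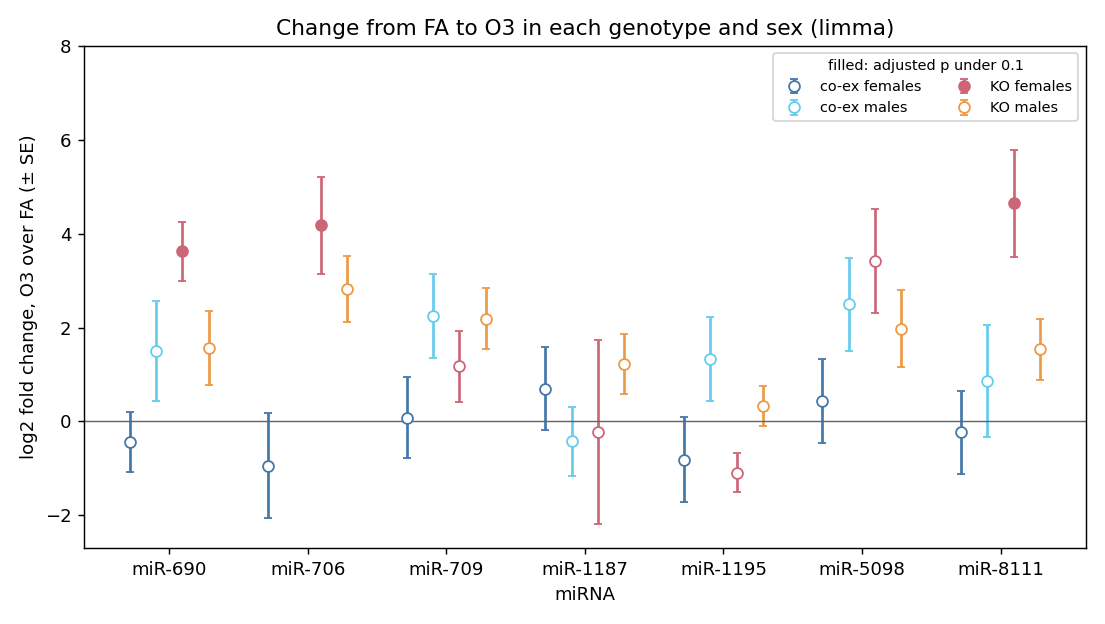
Log2 fold change from FA to O3 (vertical axis, with SE) of each miRNA in co-ex females, co-ex males, KO females and KO males. Filled points have an adjusted p under 0.1, which are miR-690 (3.62), miR-706 (4.18) and miR-8111 (4.65) in KO females, and miR-706 in co-ex males was not tested.

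Whether the response to O3 differed between sexes or genotypes was tested by subtracting the change in a table from that in another. Co-ex females differed from KO females in 3 of the 7 miRNAs, where 8.71% of 241 miRNAs tested in both tables were called. Of the 3, miR-706 and miR-8111 entered the test in KO females only because of their high O3 libraries, so the count is a description and no support for a difference. For miR-690 the log2 change was -0.44 in co-ex and 3.62 in KO, which gives a difference of -4.07 (SE 0.93, adjusted p = 0.0177, limma). For miR-8111 the changes were -0.23 and 4.65, a difference of -4.88 (SE 1.44, adjusted p = 0.0580, limma), and for miR-706 they were -0.94 and 4.18, a difference of -5.12 (SE 1.63, adjusted p = 0.0844, limma).

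Of these 3, miR-690 was called in every setting tried. Leaving out 1 of the co-ex female libraries FA replicate 1, FA replicate 4 or O3 replicate 3, or 1 of the KO female libraries FA replicate 3, O3 replicate 2 or O3 replicate 3, left miR-690 alone, with 1 call. Without KO female FA replicate 2 or O3 replicate 1, and with a pseudocount of 5, miR-706 was lost and 2 calls were left. The 2 comparisons of O3 with FA behind this difference are those described above, and it adds no new libraries.

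In the other contrasts no member was called by limma or edgeR. Between KO males and KO females 2 of 7 members had an unadjusted p under 0.05 (5.50% of 309 miRNAs tested), with 0.00% called in all. The log2 difference, males minus females, was -3.11 (SE 1.22, adjusted p = 0.758, limma) for miR-8111 and 1.42 (SE 0.56, adjusted p = 0.758, limma) for miR-1195, the latter between a change of 0.33 in males and -1.09 in females. Between co-ex males and co-ex females, and between co-ex males and KO males, 0 of 6 members had an unadjusted p under 0.05, beside 3.21% of 249 and 1.97% of 305 tested miRNAs, again with 0.00% called. The smallest adjusted p of a member was 0.968 and 0.949. For miR-709 the changes in co-ex males and KO males were 2.25 and 2.19, a difference of 0.06 (SE 1.24).

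Within groups, most members tended to rise and fall together over the 28 libraries, though not throughout the KO tables. The deviations of log2(RPM + 1) from the group means were compared over the 28 libraries for the 6 miRNAs that passed the filter in all tables, in 15 pairs, with libraries permuted within groups. All 15 correlations were positive, from 0.10 for miR-1187 with miR-8111 to 0.86 for miR-709 with miR-1195, and 12 had a permutation p under 0.05 after adjustment over the 15 pairs. The share of such pairs among all miRNAs was not computed. As background, a member had r above 0.5 with 13 (miR-1187) to 31 (miR-690) of the 229 other miRNAs that passed the filter in all tables. The libraries share their total of reads and the sample they came from, so these values describe the libraries and say nothing of common control.

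miR-709 and miR-1195 formed the closest pair, with r = 0.865 (permutation p = 2e-05, adjusted 3e-04) and rho = 0.856 (permutation p = 6e-05, adjusted 4.5e-04). Without the 2 libraries farthest from the median of miR-709, r was 0.817. Within the tables r was 0.905 in co-ex females, 0.949 in co-ex males, 0.241 in KO females and 0.750 in KO males. miR-690 and miR-709 followed with r = 0.756 (permutation p = 6e-05, adjusted 4.5e-04) and rho = 0.756 (permutation p = 6e-05, adjusted 4.5e-04), and r was 0.679 without the 2 farthest libraries. This pair, too, was closer in co-ex females (0.814) and co-ex males (0.979) than in KO females (0.217) and KO males (0.261).

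**Figure D4:**
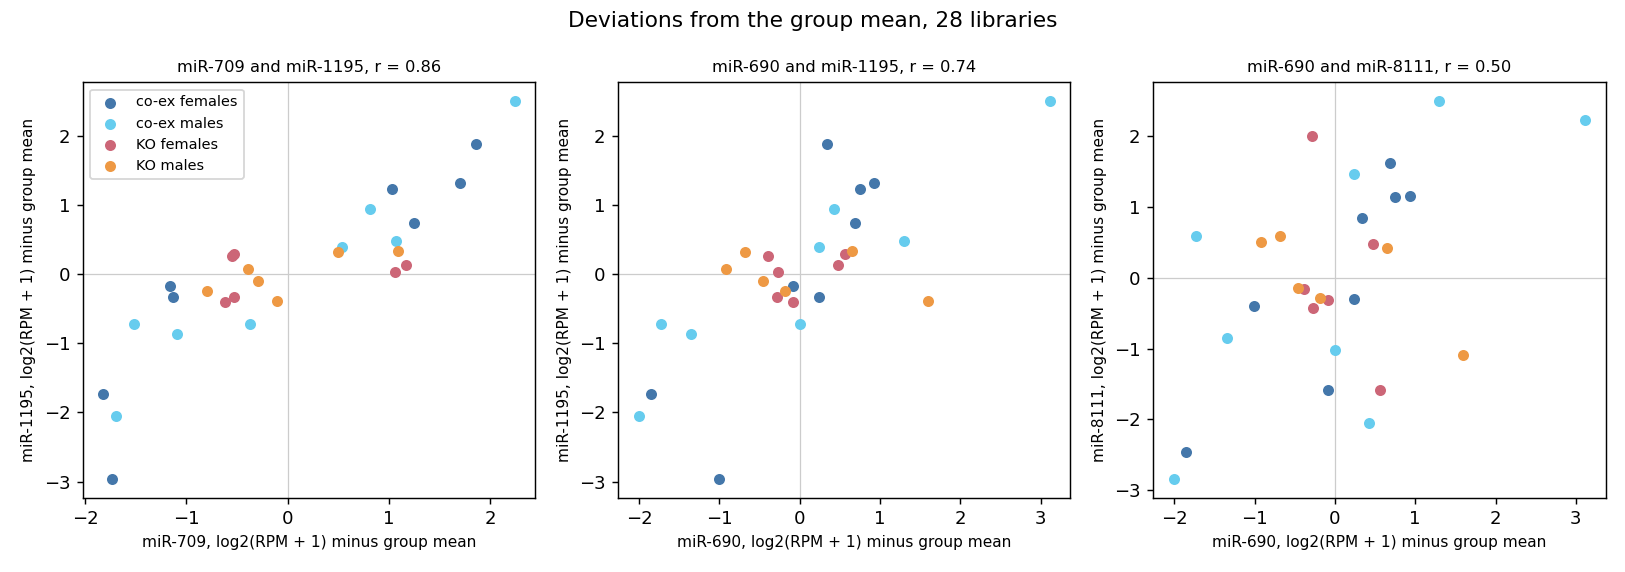
Deviation of log2(RPM + 1) from the group mean for 3 pairs of miRNAs, with a point for each of the 28 libraries coloured by genotype and sex. The points of miR-709 and miR-1195 (r = 0.86) follow a line, and those of miR-690 and miR-1195 (r = 0.74) do so less closely. Among the points off that line are a KO male library at high miR-690 and a co-ex female library at low miR-1195. Those of miR-690 and miR-8111 (r = 0.50) scatter.

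The members did not always move together in the KO tables. In co-ex females all 15 pairs had r above 0 (0.685 to 0.932, 8 libraries), and so they did in co-ex males (0.217 to 0.979, 8 libraries). In KO females 4 of 15 pairs had r below 0 (-0.563 to 0.813, 6 libraries), and in KO males 5 of 15 (-0.724 to 0.916, 6 libraries). Whether the tables differ in this was not tested.

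miR-690 and miR-1195 had r = 0.742 over all libraries (permutation p = 2.5e-04, adjusted 0.00125) and rho = 0.714 (permutation p = 7e-04, adjusted 0.0021), but -0.427 within KO males. r was 0.606 without the 2 libraries farthest from the median of miR-690. miR-690 and miR-8111 had r = 0.503 (permutation p = 0.0558, adjusted 0.0644) and rho = 0.401 (permutation p = 0.0902, adjusted 0.0967), with 0.851 in co-ex females and -0.724 in KO males. In KO males the high value of miR-690 in FA replicate 3 stood beside the lowest miR-8111 of that group. miR-690 and miR-5098 had r = 0.723 (permutation p = 5e-04, adjusted 0.00187) and rho = 0.699 (permutation p = 4e-04, adjusted 0.00169), 0.674 without the 2 farthest libraries, and were above 0 in each table, at 0.887, 0.731, 0.551 and 0.915.

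**Figure D5:**
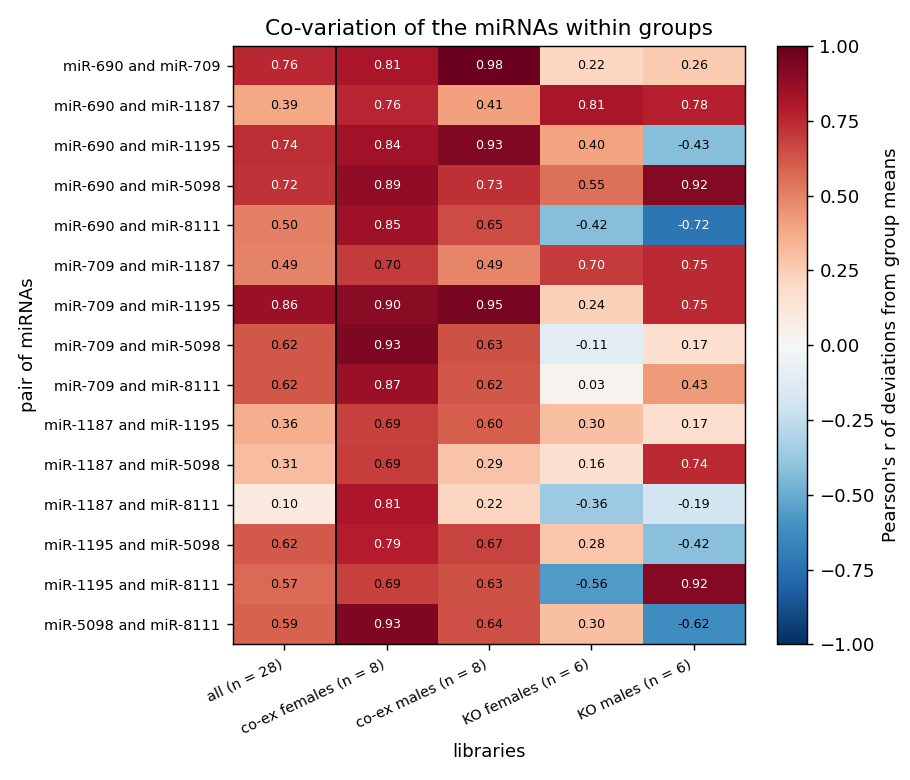
Pearson's r of deviations from group means for the 15 pairs of miRNAs (rows), over all 28 libraries and within co-ex females, co-ex males, KO females and KO males (columns), from blue at -1 to red at 1. All values over 28 libraries and in the co-ex columns are above 0, and 4 pairs in KO females and 5 in KO males are below 0.

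The depth of a library moved with these values. Over the 28 libraries, the deviations correlated with those of the log of the total reads at r = -0.612 for miR-709 (permutation p = 0.00327, adjusted 0.0196 over 6 miRNAs), with rho = -0.661 (permutation p = 0.00133). Without the 2 libraries of most extreme depth r was -0.528. For miR-1187 r was -0.547, for miR-690 -0.489 and for miR-1195 -0.487 (adjusted permutation p = 0.0385, 0.02 and 0.0418), so that for these 4 miRNAs deeper libraries of a group had lower levels. For miR-8111 (r = -0.33) and miR-5098 (r = -0.319) the adjusted permutation p was 0.125 each. The part of depth in the correlations between members was not tested.

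Among the 230 miRNAs that passed the filter in all 4 tables, the 3 most like each member were named by the same measure. For miR-690 they were miR-3473e (r = 0.80), miR-1961 (0.77) and miR-3470a (0.77), of which the miR-3473 and miR-3470 families are SINE-like. For miR-709 they were miR-1195 (0.86), miR-5126 (0.83) and miR-3470b (0.83), and for miR-1195 they were miR-709, miR-3470b (0.82) and miR-712-5p (0.75). For miR-8111 they were miR-6538 (0.78), miR-466q (0.69) and miR-3470a (0.67), and for miR-5098 they were miR-690 (0.72), miR-466q (0.71) and miR-3473f (0.70). miR-1187 had other neighbours, miR-6236 (0.77), miR-8117 (0.74) and miR-6240 (0.71). As background, the median r of a member with the other 229 miRNAs lay between -0.07 (miR-709) and 0.02 (miR-5098).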

How the data were processed

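Small RNA libraries of AM from 28 samples were analysed, in 4 tables of a genotype and sex each. According to the methods and the labels, the authors passed the reads through CASAVA and the FASTX-Toolkit and cut off adapters. Chimira served for alignment and counting, and edgeR with TCC for testing. The genome build is not given in the sources used here. The library columns that the authors deposited hold a normalized signal, that is, reads over a size factor for each library. Every table also holds the authors' mean, fold change, p-value, q-value and rank, which were not used. There were 0 columns of samples that could not be mapped.

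All values (100%) were whole multiples of a step within 0.01 reads, so reads were recovered. Tests were run with limma 3.58.1 (trended prior, Benjamini-Hochberg over all tested miRNAs of a comparison) in R 4.3.3 and checked on simulated data, with edgeR 4.0.16 and DESeq2 1.42.0 on the recovered reads as alternatives. Other alternatives were total scaling, no filter, pseudocounts of 0.1 and 5, a threshold of 0.05, a replicate block and each library left out. Correlations used 100000 permutations within groups, two-sided, and 1e-05 is the smallest p they can give. Other work used scipy 1.17.1, numpy 2.4.6, matplotlib 3.10.9 and pandas 2.3.3 under Python 3.11.15. In 36 pairs of replicates the variance was at least 24.4 times that of independent counting, so none was a library deposited again.

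The 7 members, the marker lists and the tests were chosen with earlier results of these data known. The rule for named miRNAs was all 7 members and, for each tested in all tables, the 3 others of highest r. Searches with 16 bases and with hairpins were added after the data were seen.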

Additional observations from a re-analysis of the deposited data

Results flagged for a closer look

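In co-ex males after O3, replicate 2 lay far from the other 3 libraries of its group in 4 miRNAs, by Dixon's criterion for a gap to the nearest library. The normalized values were 259.1 for miR-690, 41.9 for miR-706, 258.2 for miR-1195 and 165.9 for miR-5098. These were the only 4 of 28 sets of 4 libraries singled out. The criterion was applied to the normalized values and not to their logs. Its chance rate of about 1 in 20 sets assumes a normal spread, which was not checked, so no chance rate is claimed here. The 4 share a library, so they are a single observation.

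The change from FA to O3 differed between co-ex females and KO females for 3 miRNAs, by a test of the difference itself. The log2 difference, co-ex minus KO, was -4.88 for miR-8111, -5.12 for miR-706 and -4.07 for miR-690 (adjusted p = 0.0580, 0.0844 and 0.0177 by limma). In KO females, miR-8111 and miR-706 passed the filter on low values only because of their O3 libraries.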

How the results depend on the processing

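In KO females, 3 members were called, and between 2 and 5 over the alternatives (5 by DESeq2, 2 by edgeR and with a pseudocount of 0.1, 4 with a pseudocount of 5 and with total scaling), and 2 to 3 as libraries were left out. In KO males, 0 members were called, 2 by DESeq2 and 0 to 4 as libraries were left out, with 4 only without FA replicate 3. Between co-ex females and KO females the number was 3, and 1 to 3 as libraries were left out. With the replicate number as a block it was 1 (miR-690), and the block changed no other number of calls. Deviations of same-numbered FA and O3 libraries had r of -0.276 to 0.233 in co-ex females and -0.103 to 0.139 in co-ex males. In KO females r was -0.0152 to 0.0417 and in KO males 0.0400 to 0.0922. With 3 or 4 libraries per group these values cannot settle whether the numbers are a pairing, and the labels name none. In the tables of both co-ex sexes and in the other 3 differences no alternative gave a call, and the number of correlated pairs was 12 or 13. Shares of all tested miRNAs called are given for the main fits only, so the counts under the alternatives are descriptions.

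Some uncalled log2 changes turned sign. In co-ex females miR-5098 was 0.44, and -0.092 by edgeR and -0.053 by DESeq2. In KO females miR-1187 was -0.22, and 0.10 with a pseudocount of 5, 1.21 by edgeR and 1.34 by DESeq2. The difference between co-ex females and KO females turned for miR-1187 (-0.079 by edgeR), and that between co-ex males and KO males for miR-709 (-0.27 with total scaling, -0.11 with a pseudocount of 5) and miR-690 (0.021 with a pseudocount of 0.1, 1.41 by edgeR).

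With single libraries left out, the change in co-ex females ranged from -0.31 to 1.06 for miR-5098, from -0.99 to 0.31 for miR-8111, from -0.56 to 0.64 for miR-709, from -1.47 to 0.13 for miR-1195 and from -1.65 to 0.12 for miR-706, and in KO females from -2.15 to 1.31 for miR-1187. The difference of KO males and KO females ranged from -0.082 to 3.38 for miR-1187, and that of co-ex females and KO females from -0.61 to 2.85 for miR-1187 and from -0.38 to 1.22 for miR-1195. That of co-ex males and KO males ranged from -0.40 to 1.13 for miR-5098, from -1.39 to 0.19 for miR-8111, from -0.70 to 0.63 for miR-709 and from -1.10 to 0.56 for miR-690. The cause of these shifts was not tested.

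Groups of 3 or 4 libraries and low reads limit these results. Of 196 values of members, 7 were 0 reads and 16 were 1 to 3 reads, and in the shallowest library 3 reads were worth 12.1 normalized units.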
